A study of Mus musculus with 7 samples.

Results

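The cytosolic ribosome of mammals is built from 2 subunits of ribosomal RNA and a set of proteins, and it translates the messenger RNAs of the cell. The genes of these proteins were followed in the soleus, a postural hindlimb muscle, of YY1 knockout mice and wild type mice. Members were taken by symbol: Rpl or Rps followed by a digit, or Rplp0, Rplp1, Rplp2 or Rpsa, with the kinase genes whose symbols start with Rps6k left out. Only probe sets with 1 platform symbol were used, and the probe set with the highest mean stood for a gene. This gave 49 of 12393 genes, which hold 101 of the 22690 probe sets. A further 102 probe sets carry several symbols of which at least 1 meets the rule, and these, among them any for Rpl3, Rpl5 and Rplp1, were not analysed here.

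The series holds 7 one-colour Affymetrix arrays of total RNA: 4 from YY1 knockout soleus and 3 from wild type soleus. All mice were aged 6 months, on a mixed background (C57Bl/6 and 129). The sources used here give neither the deleted stretch of Yy1 nor the cells that lack it. The labels do not say that each array is a separate animal, so p-values here cover only the variation among these samples, which may be technical.

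Ribosomal proteins are needed in equal amounts, and their genes are known for being expressed together and at high levels in every tissue. The transcripts share a run of pyrimidines at their 5′ end, the 5′ TOP motif, through which mTORC1 controls their translation. A few members have a paralogue that can take their place in the ribosome: RPL3L is the striated muscle form of RPL3, RPL22L1 is the paralogue of RPL22, RPS27L that of RPS27, and RPL39L, in mouse male germ cells, that of RPL39. YY1 is a zinc finger protein that binds a motif around ATGGC, and ETS factors such as GABPA bind CCGGAAG. Both motifs are known from ribosomal protein promoters.

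Promoter windows, from 250 bases before to 50 bases from the start on, were available from RefSeq (build GRCm38.p6) for 42 of the 49 members, in 50 windows. AANATGGC, searched on both strands, stood in the windows of 7 of 42 members (16.7%) and in those of 6.96% of all 27025 genes with a window. With a G added, as AANATGGCG, it stood in 5 members (11.9%), against 2.76% of all genes. CCGGAAG stood in 21 members (50%), against 9.93% of all genes, and 0 members held both CCGGAAG and AANATGGC. The windows were not matched on base composition, and a match is a description of letters, not a binding site.

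The AANATGGC matches are shown because Yy1 is the gene removed here. Capitals mark the match, the sequence reads along the gene's strand, and positions count from the annotated start. Rpl13a, which rose in the knockout, and Rpl22l1, which fell, hold it just after the start, as does Rpl7l1. Rpl13a holds a second match at -127. Rps27 and Rps28 hold it before the start, Rps28 on the opposite strand. Neither of these last genes nor Rpl7l1 passed the test. Rpl22 and Rps19 hold it as well, on the opposite strand before the start.
Rpl13a (chr7:45128699-45128728, minus strand, first base at 29): ggcggctgccgAAGATGGCggaggggcagg
Rpl22l1 (chr3:28805521-28805550, plus strand, first base at 25): ggctgcagctcAACATGGCgccggtgagtg
Rpl7l1 (chr17:46782617-46782646, minus strand, first base at 22): gaagcaccggaAAGATGGCggaggaagggt
Rps27 (chr3:90213704-90213733, minus strand, first base at -74): aagaccttccgAAGATGGCgaagcaacacg
Rps28 (chr17:33824616-33824645, minus strand, first base at -72): gagtagcggacGCCATATTccttccgctcc

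CCGGAAG is shown in 4 of the members that rose, with the match in capitals on either strand. The 100 bases before the start of Rpl3l, the member that fell most, are shown beside them. Rpl3l held none of the motifs in either of its 2 windows.
Rps27l (chr9:66946084-66946113, plus strand, first base at 10): ccgcctctatcCCGGAAGttgctgaggggc
Rpl19 (chr11:98026660-98026689, plus strand, first base at -39): acttagcgtgaCTTCCGGctacccagagga
Rps7 (chr12:28635949-28635978, minus strand, first base at -14): tttcagaagagCTTCCGGtttccacccacc
Rpl11 (chr4:136053369-136053398, minus strand, first base at 7): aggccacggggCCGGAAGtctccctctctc
Rpl3l (chr17:24727726-24727825, plus strand): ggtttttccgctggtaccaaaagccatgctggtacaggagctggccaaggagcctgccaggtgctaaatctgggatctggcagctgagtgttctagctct

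Yy1 checks the labels. On its brightest probe set the log2 values were 8.39, 8.24, 8.48 and 8.29 on the knockout arrays and 9.32, 9.20 and 9.62 on the wild type arrays, without overlap. The difference was -1.02 (SE 0.10, limma adjusted p = 0.000213, Benjamini-Hochberg over all genes). The 4 Yy1 probe sets differed by between -1.70 and -0.06. Values are log2(intensity + 1), so that 1 log2 unit is a doubling, and differences are knockout minus wild type throughout. Array medians lay between 139.1 and 143.2 intensity units, and the brightest probe set of any array reached 15.63 log2 units.

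On the deposited scale, ribosomal protein genes were slightly higher in the knockout soleus, on both subunits, while the muscle paralogue Rpl3l was lower. Of the 49 members, 19 rose, 2 fell and 28 did not pass an adjusted p of 0.05 (limma). Among all 12393 genes, 17% rose, 16% fell and 32.9% passed in either direction. The median log2 difference over the members was 0.16, a 1.12-fold higher level, against 0.01 over all genes. It was above 0 in 44 members and below 0 in 5. In 29 members every knockout array was above every wild type array, in 2 every knockout array was below, and in 18 the groups overlapped. Over all genes the shares without overlap were 20.5% above and 19.1% below. With each array centred on the median of the members, 0 rose and 10 fell. That scaling moved the median of all genes to -0.28 and left the members' median 0.15 above it, the same distance as without it. Centring on the members takes out a rise they share by construction. It shifts each member by -0.29, beyond their median difference of 0.16, so its counts cannot test for a shared rise.

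The rise was seen on each knockout array. The median member stood 0.10, 0.21, 0.13 and 0.18 log2 units above its wild type mean on knockout arrays 1 to 4, and 0.02, -0.03 and 0.01 from it on the wild type arrays. The median over all genes stood 0.00, 0.02, 0.02 and 0.00 above the wild type mean on knockout arrays 1 to 4. In bulk muscle, fewer cells of a type and less RNA per cell cannot be told apart.

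**Figure D1:**
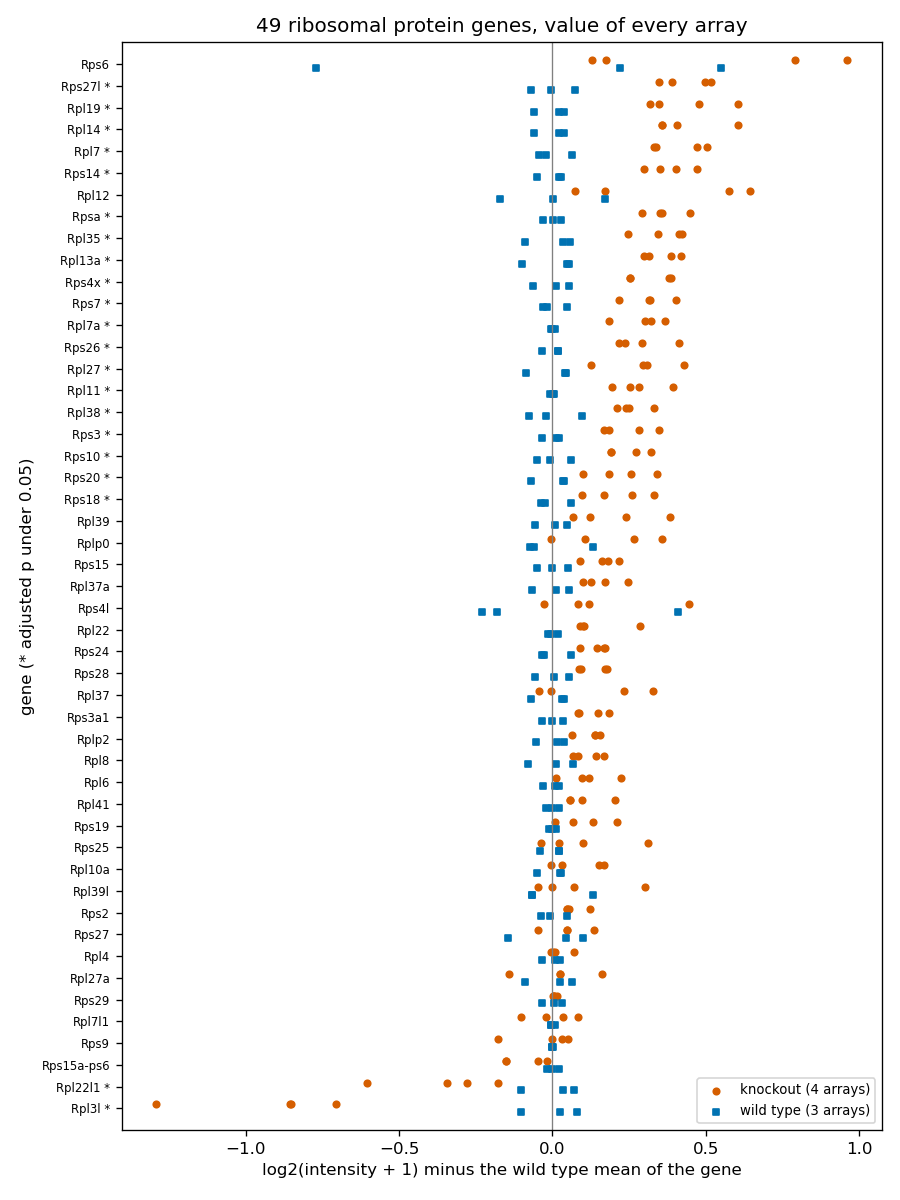
Log2(intensity + 1) of each member on each array, drawn as the difference from the member's wild type mean, 1 row a gene, with the knockout arrays drawn above the wild type arrays of the row and a star for an adjusted p under 0.05. On the deposited scale most members lie above 0 on all 4 knockout arrays, by a median of 0.10 to 0.21 log2 units, and Rpl3l and Rpl22l1 lie below.

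The 42 members that are proteins of the standard ribosome, leaving out 5 paralogues and 2 genes that RefSeq lists as pseudogenes, rose in 18 cases and fell in 0 (limma; 26 and 0 at an unadjusted p under 0.05). Their median log2 difference was 0.19. At an unadjusted p under 0.05 (limma), 2717 of all 12393 genes rose and 2541 fell. Of 20 large subunit genes 9 rose, with a median of 0.23, and of 20 small subunit genes 9 rose, with a median of 0.19. The 2 stalk genes, whose proteins recruit elongation factors to the ribosome, did not pass the test.

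Among large subunit genes, Rpl19 had the highest difference on a bright probe set. Its log2 values were 13.64, 13.93, 13.67 and 13.80 on the knockout arrays and 13.35, 13.27 and 13.37 on the wild type arrays. The groups did not overlap, and the difference was 0.44 (SE 0.08, limma adjusted p = 0.00322), or 135% of the wild type level. Rpl7 measured 13.40, 13.54, 13.40 and 13.57 in knockout soleus and 13.13, 13.02 and 13.04 in wild type soleus. It too rose without overlap, by 0.41 (SE 0.07, limma adjusted p = 0.00171).

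Rpl35, whose protein lies at the exit of the nascent chain tunnel, measured 13.92, 13.99, 13.82 and 14.00 on the knockout arrays and 13.61, 13.49 and 13.63 on the wild type arrays. Rpl13a, whose protein in human monocytes can leave the ribosome and silence inflammatory messages, measured 14.39, 14.50, 14.38 and 14.46 on the knockout arrays and 14.13, 13.98 and 14.13 on the wild type arrays. Neither gene overlapped between the groups, and their differences were 0.36 and 0.35. Rpl14 rose by 0.43, on a dim probe set with means of 7.24 ± 0.12 in the knockout (SD, n = 4) and 6.81 ± 0.05 in the wild type (SD, n = 3). Rpl11, which with RPL5 and 5S RNA binds and holds the p53 ligase MDM2, rose by 0.28. The other large subunit genes that rose were Rpl7a (0.29), Rpl27 (0.29) and Rpl38 (0.26), the last known in mouse embryos for its part in translating Hox messages.

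Among small subunit genes, Rpsa, which is also known as a laminin receptor, had log2 values of 13.83, 13.93, 13.84 and 13.77 on the knockout arrays and 13.48, 13.45 and 13.51 on the wild type arrays. It rose by 0.36 (SE 0.06, limma adjusted p = 0.00147), and the groups lay well apart. Rps14, whose loss from 1 allele is tied to an anaemia with a deletion of human chromosome arm 5q, had values of 14.45, 14.57, 14.40 and 14.50 in the knockout and 14.13, 14.05 and 14.13 in the wild type. It rose by 0.38 (SE 0.06, limma adjusted p = 0.00159), again with no overlap. Rps7 and Rps4x rose by 0.31 and 0.32. Smaller rises were measured for Rps26 (0.29), Rps3 (0.25), Rps10 (0.24), Rps20 (0.22) and Rps18 (0.21), and RPS26 and RPS10 are proteins lost in some human Diamond-Blackfan anaemias. The calls for Rps20 and Rps18 were the least firm, with limma adjusted p-values of 0.0410 and 0.0433. Of the 3 other probe sets of Rps20, 0 rose, and the brightest of them (mean 13.68) differed by 0.02 with overlap.

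The S6 kinase substrate Rps6 had the largest positive difference of all members, 0.51, and did not pass the test. Its log2 values were 8.79, 8.96, 8.13 and 8.18 on the knockout arrays and 7.23, 8.22 and 8.55 on the wild type arrays. The groups overlapped (SE 0.33, limma adjusted p = 0.268), and without wild type array 1 the difference was 0.13. The stalk gene Rplp0 measured 14.38, 14.27, 14.63 and 14.54 in the knockout and 14.22, 14.20 and 14.41 in the wild type, with overlap. Its difference of 0.18 had a limma adjusted p of 0.193, and that of Rplp2, 0.12 without overlap, had one of 0.109. Fau, which encodes the small subunit protein eS30 under a name outside the rule, differed by 0.08 (limma adjusted p = 0.358).

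Other members were measured at nearly the same level in both groups. Rps29 had log2 values of 14.71, 14.72, 14.71 and 14.71 on the knockout arrays and 14.73, 14.67 and 14.71 on the wild type arrays, a difference of 0.01 (SE 0.05). The 2 other probe sets of Rps29 differed by -0.10 and -0.08 and did not pass. Rpl4 differed by 0.02, Rpl27a by 0.02 and Rps9 by -0.02, each with overlap. Rpl37a, another member near the top of the scale, averaged 14.62 ± 0.06 in the knockout (SD, n = 4) and 14.46 ± 0.06 in the wild type (SD, n = 3), without overlap, at a limma adjusted p of 0.0706. In a fit over every probe set, its other bright probe set (mean 14.15) rose by 0.22 (limma adjusted p = 0.0205). Its dim one (mean 7.17) differed by 0.14 and did not pass.

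**Figure D2:**
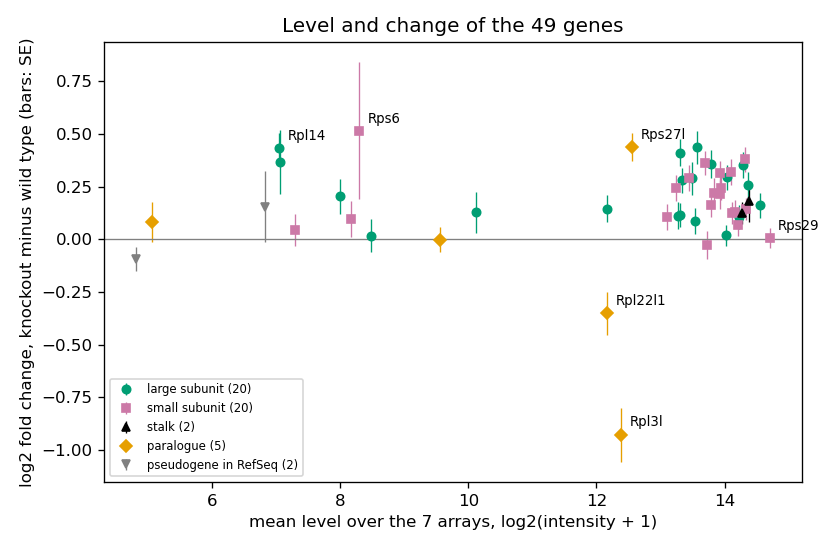
Log2 difference, knockout minus wild type, of each member against its mean log2(intensity + 1) over the 7 arrays, with bars of 1 SE and colours for large subunit, small subunit, stalk, paralogue and pseudogene members. The members with means of 13 or more lie mostly between 0 and 0.44, and Rpl3l stands apart at -0.93.

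Most of the members that rose had bright probe sets. Of 33 members with a mean of 13 log2 units or more, 17 rose and 0 fell (limma; 23 and 0 at an unadjusted p under 0.05), with a median difference of 0.21. All 288 genes of that brightness, these 33 included, rose in 21.2% of cases and fell in 33%, and their median was -0.05. At an unadjusted p under 0.05 (limma), 75 of these 288 rose and 118 fell. Of 6 members with means from 9 to 13, 1 rose and 2 fell, and of 10 members below 9, 1 rose.

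Rpl3l fell more than any other member. Its log2 values were 12.21, 11.62, 12.05 and 12.06 on the knockout arrays and 12.81, 12.94 and 12.99 on the wild type arrays. The groups did not overlap, and the difference was -0.93 (SE 0.13, limma adjusted p = 0.000889), or 52.6% of the wild type level. RPL3L replaces RPL3 in ribosomes of heart and skeletal muscle, and no probe set of Rpl3 was analysed here to set beside it. The fall was called in each of the 18 other settings tried, with differences of -1.22 to -0.81.

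Rpl22l1 fell as well. Its values were 12.03, 12.10, 11.77 and 12.20 on the knockout arrays and 12.41, 12.44 and 12.27 on the wild type arrays, with no overlap. The difference was -0.35 (SE 0.10, limma adjusted p = 0.0285), or 78.4% of the wild type level. The call was lost without knockout array 1 (adjusted p = 0.0526), wild type array 1 (0.0889) or wild type array 2 (0.102). Rpl22, whose protein in mouse cells represses Rpl22l1, measured 12.19, 12.37, 12.17 and 12.18 in the knockout and 12.10, 12.07 and 12.08 in the wild type. Its groups did not overlap, with a difference of 0.14 that did not pass (limma adjusted p = 0.120).

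Rps27l, a paralogue of Rps27 known as a p53 target, rose. It measured 12.65, 12.82, 12.80 and 12.69 on the knockout arrays and 12.24, 12.38 and 12.30 on the wild type arrays. The groups did not overlap, and the difference of 0.44 (SE 0.07, limma adjusted p = 0.00124), 136% of the wild type level, had the smallest p of the members that rose. Rps27 itself differed by 0.05, on a dim probe set with a mean of 7.29. Rpl7l1, whose protein serves early large subunit assembly and is no part of the mature ribosome, differed by 0.00. Rpl39l averaged 5.10 ± 0.15 in the knockout (SD, n = 4) and 5.02 ± 0.12 in the wild type (SD, n = 3) and is one of the 3 members with the lowest signals. The other ones are Rps4l (mean 6.83) and Rps15a-ps6 (mean 4.81), both pseudogenes in RefSeq, and neither passed the test.

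Whether a paralogue and its parent gene changed unequally was tested on the difference between them within each array, for 5 pairs with an exact permutation test over the 35 divisions of the arrays. Rps27l minus Rps27 was 0.39 higher in the knockout, and the arrays of the groups did not overlap. Rpl7l1 minus Rpl7 differed by -0.41, also without overlap. Both had the smallest p the design allows, 0.0286, and 0.0714 after Benjamini-Hochberg adjustment over the 5 pairs. Rpl22l1 minus Rpl22 differed by -0.50 (exact p = 0.0571, adjusted 0.0952). Rpl39l minus Rpl39 differed by -0.12 (adjusted exact p = 0.5) and Rps4l minus Rps4x by -0.16 (adjusted exact p = 0.543). No pair passed the threshold after adjustment. Even a pair at the smallest p could not pass unless more of the 5 pairs had reached it too. The lack of a call is thus no sign that a pair changed equally.

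**Figure D3:**
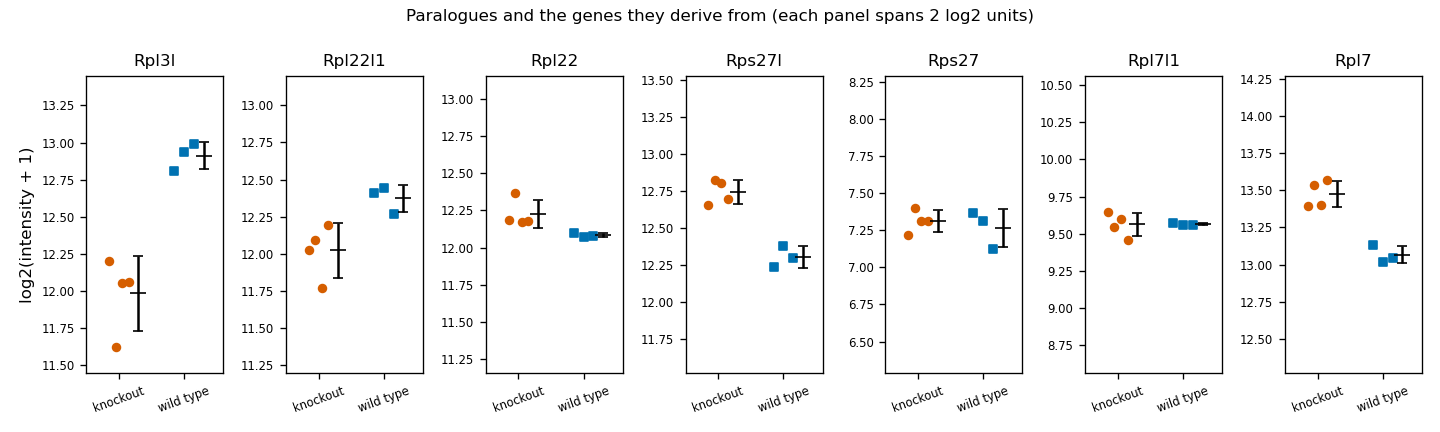
Log2(intensity + 1) of 4 paralogues and 3 of their parent genes on each array, knockout left of wild type, with group means and SD bars beside the points. Rpl3l and Rpl22l1 lie lower and Rps27l higher on all 4 knockout arrays than on all 3 wild type arrays.

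Ribosomal protein genes have many processed pseudogenes, and probe sets can pick up near-identical copies. Of the 49 probe sets used, 13 end in _x_at, the mark Affymetrix gives to sets that may cross-hybridise, and 8 of these rose. Of the 18 ending in _at, 4 rose and 1 fell, and of the 17 ending in _a_at, 7 rose and 1 fell. Over all genes, whatever the suffix, 17% rose and 16% fell. The 18 include all 10 members with means below 9, of which 1 rose. Shares of all genes by suffix were not worked out, so these counts do not compare the suffixes. The 23 members with several probe sets had 52 further ones. Of the 31 with a mean of 11 or more, 17 rose and 0 fell in a fit over every probe set with 1 symbol, where 14.6% rose and 14.8% fell. Of the 21 dimmer ones, 2 rose and 2 fell. The falls were in Rps4x (-0.44, mean 5.95) and Rps10 (-0.34), whose brightest probe sets rose. Averaged over both of its probe sets, Rps4x differed by -0.06, so its direction rests on the bright one.

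Of the 16 members that rose and have a promoter window, 10 hold CCGGAAG and 1 holds AANATGGC. Of the 24 that did not pass, 11 hold CCGGAAG and 5 hold AANATGGC. Of the pair that fell, Rpl22l1 holds AANATGGC and neither holds CCGGAAG. A run of 4 pyrimidines after a C at the annotated start, as in 5′ TOP messages, stood in 8 of the 42 members (19%), against 3.01% of all genes, and 5 of these 8 members rose. Only the exact annotated base was read, so a run beginning a few bases away was missed. The share is thus not that of members with 5′ TOP messages.

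Genes that make or serve the ribosome were counted in lists of their own, read against the 17% and 16% of all genes that rose and fell. Of 43 pre-rRNA processing and nucleolar genes, 13 rose and 3 fell, with a median of 0.14. Of those that rose, the smallest p-values were those of Nhp2, of the particles that place pseudouridines (0.46), Utp11, of the small subunit processome (0.43), and Fbl, the methyltransferase fibrillarin (0.34). Ddx56 (-0.54), Emg1 (-0.36) and Ddx47 (-0.23) fell. Without wild type array 3 the number that rose was 7. With arrays centred on the ribosomal protein genes, which moved the median of all genes down as given above, 0 of this list rose and 15 fell, and of the assembly factors below 1 rose and 16 fell.

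Of 37 subunit assembly and export factors, 11 rose and 2 fell, with a median of 0.11. Sbds, which helps to release EIF6 from the large subunit, rose by 0.53, Eif6 itself by 0.42, Pa2g4 by 0.42 and Nip7 by 0.46. Rrs1, needed to bring 5S RNA with RPL5 and RPL11 into the large subunit, fell by 0.76 on the log2 scale, and Ebna1bp2 by 0.16. The fall of Ebna1bp2 was near the threshold (limma adjusted p = 0.0471), and 1 gene of the list fell without knockout array 2, 3 or 4 or without wild type array 1, 2 or 3.

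RNA polymerase I and its factors make the large rRNAs. Of 14 such genes 0 rose (limma; 2 at an unadjusted p under 0.05) and 2 fell, Polr1c (-0.33) and Top1 (-0.23), with a median of 0.04. Without wild type array 3, 0 fell. Without knockout array 4 or without wild type array 2, 1 rose, and with the mean of all probe sets of a gene or with dim genes left out, 2 rose.

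Of 12 genes listed by symbol as elongation factors or as other genes with 5′ TOP messages, 4 rose and 2 fell, with a median of 0.05. Eef1a1, the elongation factor that brings charged tRNAs, averaged 14.37 ± 0.13 in knockout soleus (SD, n = 4) and 13.57 ± 0.20 in wild type soleus (SD, n = 3), a rise of 0.80. Nap1l1 (0.63), Pabpc1 (0.46) and Naca (0.43) rose too. Hnrnpa1 (-0.47) and Eef1e1 (-0.31) fell, Eef1e1 with overlap between the groups (limma adjusted p = 0.0303). Eef1e1 was listed for its symbol and does not encode an elongation factor. The number that fell was 1 without knockout array 2, 3 or 4 or without wild type array 1 or 2.

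Of 18 genes of the mTORC1 and S6 kinase pathway, 6 rose and 3 fell, with a median of 0.12. The inhibitor Sesn1 rose by 0.85, Akt1 by 0.48 and Rragc, a GTPase of the amino acid branch, by 0.35. The mTORC1 subunit Mlst8 (-0.48), Eif4ebp2 (-0.31) and Tsc2 (-0.26) fell, and 1 gene fell without wild type array 1 or without wild type array 3. Among 5 chaperones and partners of ribosomal proteins, Mdm2 rose by 0.56 and 0 fell (limma; 1 at an unadjusted p under 0.05).

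Of 11 transcription factors known at ribosomal protein promoters, 2 rose and 2 fell. Tbpl1, whose relative TRF2 serves these promoters in Drosophila, rose by 0.97 and Myc by 0.71. Yy1, the gene removed here, fell as given above, so 1 of the 2 falls was fixed by the design. The other was that of Gabpa, the ETS factor, by 0.27 on the log2 scale (limma adjusted p = 0.0347). Without knockout array 3, or without wild type array 1, 2 or 3, 1 gene of this list fell.

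**Figure D4:**
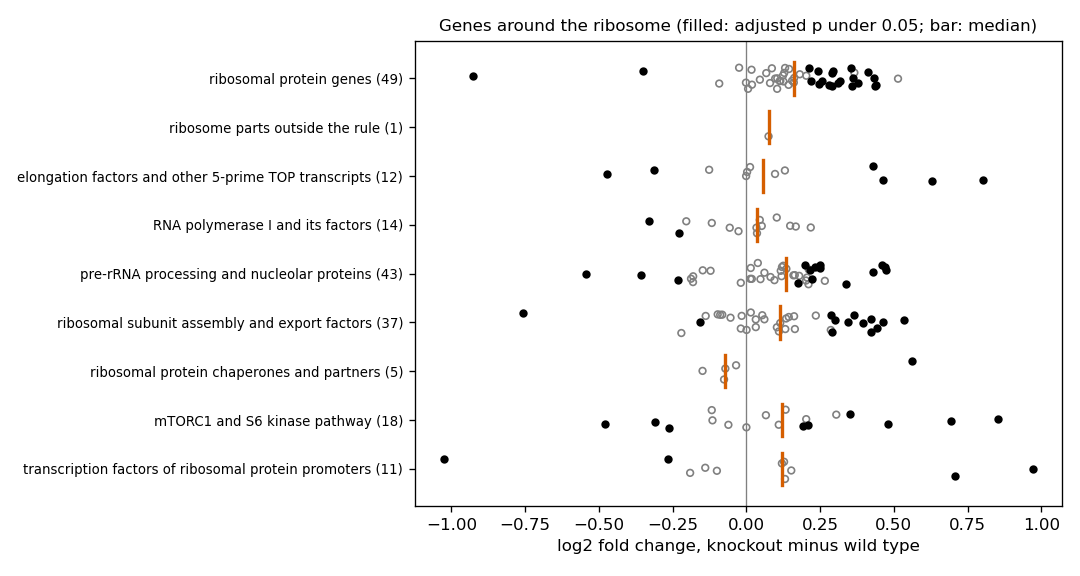
Log2 differences, knockout minus wild type, of the genes of each list, 1 point a gene, filled where the adjusted p was under 0.05, with bars at the list medians and the ribosomal protein genes at the top. The medians of the lists lie between -0.07 and 0.14, and the members' median is 0.16.

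Markers of other cells moved between the same groups. All 12 macrophage markers rose, with a summed intensity of 8962 to 14688 on the knockout arrays and 4054 to 4935 on the wild type arrays. Of 8 fibroblast markers 6 rose, with sums of 25740 to 38347 on the knockout arrays and 20128 to 23702 on the wild type arrays, and without wild type array 1 the number was 3. All 8 endothelial markers fell, with sums of 2006 to 2233 in the knockout and 4182 to 4582 in the wild type. Of 6 markers of cycling cells 3 rose, and of 7 lymphocyte markers 0 rose or fell (limma; 0 at an unadjusted p under 0.05). Markers of cycling cells had means of 4.36 to 5.78, of lymphocytes 4.57 to 6.82 and of red blood cells 4.92 to 7.25. All of these lay below the median of 7.66 over all genes, so their counts rest on dim signals. The macrophage marker with the lowest mean, Cd14, stood at 6.69. The adipocyte markers summed to 7562 to 10525 in the knockout and 14072 to 15290 in the wild type, with 1 of 4 higher and 2 lower. Fabp4 (mean 13.15), which fell by 0.72 on the log2 scale, makes up most of each sum. Lep also fell (-1.88), Retn rose by 1.06, and Adipoq differed by -0.45 with overlap (limma adjusted p = 0.267). The 3 Schwann cell markers summed to 1368 to 1696 in the knockout and 1807 to 2309 in the wild type, with 1 lower, Mbp (-1.73). Pmp22 (-0.04) and Mag (0.02) did not pass, both with overlap. Of 4 red blood cell markers 2 fell, and 0 did so when knockout array 2 or 1 of wild type arrays 1 and 3 was left out.

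The fibre markers moved as well. Slow fibre markers, all with means of 14.81 or more, rose in 4 of 8 cases and fell in 1. Their median difference was 0.17, close to the 0.16 of the ribosomal protein genes, and they summed to 304959 to 316022 in the knockout and 273383 to 296205 in the wild type. With knockout array 2 left out, or wild type array 3, the number that rose was 2, and with wild type array 2 left out it was 1. Of 6 general muscle fibre markers, all with means of 13.93 or more, 1 rose and 2 fell, with sums of 188743 to 195198 in the knockout and 201242 to 202551 in the wild type. On knockout arrays 1 to 4 the macrophage sums were 8962, 10772, 14688 and 9540, and the fibroblast sums 25740, 33531, 38347 and 27951. The median member stood 0.10, 0.21, 0.13 and 0.18 above its wild type mean on these arrays. The part of these cells in the rise of ribosomal protein genes was not tested.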

How the data were processed

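Total RNA was measured on 7 Affymetrix arrays. The authors deposited 1 intensity per probe set and array on a linear scale, made with RMA, which corrects background, normalizes arrays and summarises each set's probes, per the submitters' processing notes. The sources used here do not give its version. Scan dates and slides were not used here, so batches were not tested. The table held 0 columns of other samples. Control probe sets (64) and probe sets without exactly 1 platform symbol were left out. Symbols were updated with RefSeq's gene table (12369 of 12393 genes matched).

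Intensities were taken to log2(value + 1). Knockout was compared with wild type by lmFit and eBayes of limma 3.58.1 in R 4.3.3, two-sided, with Benjamini-Hochberg adjustment over 12393 genes, a threshold of 0.05 and no filter. The number of arrays limits the precision. The code was tested on simulated data. Replicate numbers shared by the groups did not pair the arrays (correlations of deviations 0.03, -0.13 and 0.02), so the fit has no block. No 2 arrays were duplicates: at most 1819 of 22690 values were equal in any pair.

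The genes named were all members of paralogue pairs, the stalk genes, Rpsa, Rps6 and Rpl11, the 10 members with the smallest adjusted p in each direction, the 3 with the highest and the 3 with the lowest mean, members whose probe sets disagreed, and per list up to 3 genes in each direction. Rpl4, Rpl27a, Rps9, Eif6, Naca and the remaining members that rose were added after their values were seen. The members and lists were chosen with earlier results of these data known. The alternatives changed the pseudocount, scaling, filter, probe set choice, limma settings, block and arrays included. Leaving out paralogues and pseudogenes, keeping only bright members and testing every probe set were added after seeing the data.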

Additional observations from a re-analysis of the deposited data

Results flagged for a closer look

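On knockout array 2 the values of 3 members stood further from the other knockout arrays than Dixon's 95% criterion for 4 samples allows. Rpl22 was 12.37 there, with 12.19 on the nearest knockout array. Rps2 was 14.29, with 14.22 on the nearest. Rps29 was 14.72, with 14.71 on the nearest. Chance flags about 5% of groups by this criterion, and each of the 49 members was looked at in the knockout group. The groups of 3 wild type arrays are too small for it. Array 2 was also the knockout array with the highest median of the members, and without it 17 members rose and 2 fell.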

How the results depend on the processing

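Rpl3l was lower in all 18 alternatives (adjusted p up to 0.00708). Of the 19 members that rose, 11 did so in every alternative in which they were measured except centring on the members. With each array centred on the median of the members, 0 rose, 10 fell and their median was -0.13, while the median of all genes was -0.28 and 5.53% of all genes rose and 57% fell. This takes out a rise the members share by construction and shifts each by -0.29, beyond their median difference of 0.16. Of the 44 members above 0, 31 came out below 0. Among them were Rpl11 (-0.0121), Rps10 (-0.0481), Rps27 (-0.25) and Rps29 (-0.29), which passed the test on 1 of the scales. Repeated quantile normalization gave 26 risen members and a median of 0.20. The mean of all probe sets of a gene gave 16, and -0.0613 for Rps4x. Without probe sets ending in _x_at or _s_at, 16 of 44 rose. Leaving out each array in turn gave 13 to 21 risen members, fewest without wild type array 2, 1 to 2 that fell, and medians of 0.14 to 0.18. Without the 7 paralogues and pseudogenes 0 fell, and among members with a mean of 13 or more 0 fell, with a median of 0.21.

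The replicate numbers do not pair the arrays. With replicate number as a block over 6 arrays, 12 members rose and 2 fell. In the same fit, 6 nucleolar genes rose. For paralogue pairs, no setting with all 7 arrays gave an adjusted exact p under 0.0714. The smallest exact p possible is 0.1 without a knockout array, 0.0667 without a wild type array and 0.25 with the block, so those settings could not pass and say nothing of stability. The cause of these changes was not tested. Saturation near the top of the scale and cross-hybridisation of pseudogenes cannot be read from summarised values, and signal over background was not given.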
